A study of Arabidopsis thaliana with 4 samples.

Results

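The genes described here are JAL22, JAL23, JAL33 and JAL34 of Arabidopsis thaliana, which encode jacalin-related lectins. They were taken by name: of the 13513 probe sets that the platform table pairs with 1 gene, these 4 carry a symbol of the form JAL plus a number, and they are 4 of 13286 genes with a probe set of their own that could be matched to the RefSeq table. The gene names in that table (assembly TAIR10.1) also call each of them a jacalin-related lectin. They were proposed for a closer description after their signals on these arrays were known, and so count as selected on the difference between smg7b and wild-type plants. Their genotype differences are therefore given as a description, with standard errors (SE) and without tests. The smg7b group comprised 2 whole-plant samples of the Col-0 accession carrying the T-DNA insertion SALK_050115, in which a segment of Agrobacterium DNA has entered the genome and can break a gene. The wildtype group comprised 2 whole-plant samples of Col-0 without it. All plants were grown singly in 5-inch pots under constant light at 22 °C and 65% humidity and were collected 17 days after germination. The mutant is 1 insertion line, and neither another allele nor a complemented line was analysed here. Each sample was hybridised to its own Affymetrix ATH1 array, and each probe set gave 1 MAS5 signal, a linear intensity.

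Jacalin-related lectins are plant proteins that bind sugars through a domain first described in the lectin of jackfruit seeds. Arabidopsis and its relatives carry many of them, often with several jacalin domains in 1 protein. Several are known as partners of the beta-glucosidase PYK10, which is stored in the ER body, a compartment of the endoplasmic reticulum of seedlings and roots. When cells are damaged the enzyme and the lectins meet and form large complexes. Others, the myrosinase-binding proteins and nitrile-specifier proteins, are tied to the breakdown of glucosinolates, the mustard oil precursors of this plant family. Family members of this type are known to respond to wounding and jasmonate.

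The arrays were first checked as a set. AT1G28260, taken from general knowledge as the gene that smg7b names, read 16.7 and 14.4 in smg7b, against 49.7 and 46.8 in wildtype, and its fall by 1.64 on the log2 scale passed the test (SE 0.30, limma adjusted p = 0.00253). Array by array, 72.0% to 75.5% of plant probe sets exceeded background, defined as the highest signal among the bacterial controls (6.42 to 9.21). Of 13648 probe sets bright enough to be tested, 20.3% passed an adjusted p of 0.05, and 55.7% of these calls were higher in smg7b. After centring each array on its median 42.2% were higher, and that centring moved the median difference of all tested probe sets by -0.12. Leaf and root tissue left few markers that could be read. The 3 measured leaf genes of 10 listed (RCA, PRK and PSAE-1) lay above background on all arrays, with summed signals of 12792 and 12035 in smg7b and 11751 and 16629 in wildtype. PRK, a Calvin cycle enzyme gene, read 1823 and 2225 in smg7b, and 3172 and 3454 in wildtype, and its log2 difference of -0.72 (SE 0.25) did not pass the test (limma adjusted p = 0.0680). RCA, which encodes rubisco activase, was also lower in both smg7b samples (4436 and 4187, against 4746 and 6341 in wildtype; log2 difference -0.35, SE 0.30, limma adjusted p = 0.455), and the groups of PSAE-1 overlapped. Of 12 root genes 2 had a probe set, PYK10, which also belongs to the ER body list and lay above background throughout, and EXPA7, which exceeded background on wild-type replicate 1 only. PYK10 read higher in both smg7b samples than in either wild-type sample, by 0.40 on the log2 scale, and its values are given with that list. The part of tissue make-up in the differences of the lectin genes was not tested. None of the 6 flower genes had a single-gene probe set. In whole plants a change in the share of a cell type and a change in RNA per cell cannot be told apart. Whether the replicates are separate cultures or pools of plants is not stated in the labels, so the spread behind each error and p-value may be technical.

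All 4 lectin genes read higher in both smg7b samples than in either wild-type sample. JAL23 stood furthest apart at 3.59-fold, followed by JAL33 at 1.83-fold, JAL34 at 1.72-fold and JAL22 at 1.41-fold (ratios of geometric means, n = 2 per genotype). Such a separation, with both smg7b arrays above both wild-type arrays, was found for 30.1% of all tested probe sets. All 16 signals lay well above the background of their array, and all 4 probe sets passed the filter on dim signals.

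JAL22 and JAL23 lie close together on chromosome 2, with 1 annotated gene between them, and differed most from each other. JAL22 (AT2G39310, probe set 266988_at) read 138.7 and 132.4 in smg7b replicates 1 and 2, and 93.5 and 99.2 in wildtype replicates 1 and 2. The samples of each genotype were tightly grouped, and the lowest smg7b signal was 1.33-fold above the highest wild-type one. Its mean was 135.5 ± 4.45 in smg7b and 96.4 ± 4.00 in wildtype (SD, n = 2 each), a log2 difference of 0.49 (SE 0.20). Of all tested probe sets, 18.9% had a larger positive difference.

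JAL23 (AT2G39330, probe set 266989_at) read 297 and 334 in smg7b, and 76.0 and 101.4 in wildtype. Here smg7b replicate 2 was the brightest sample and wild-type replicate 1 the dimmest. The mean was 316 ± 26.1 in smg7b and 88.7 ± 18.0 in wildtype (SD, n = 2 each), and the log2 difference was 1.84 (SE 0.21). Every smg7b sample was between 2.93-fold and 4.40-fold above every wild-type sample, and 387 of the 13648 tested probe sets (2.84%) had a larger positive difference. The gene between the pair, AT2G39320, stayed under background on all 4 arrays and could not be followed.

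**Figure D1:**
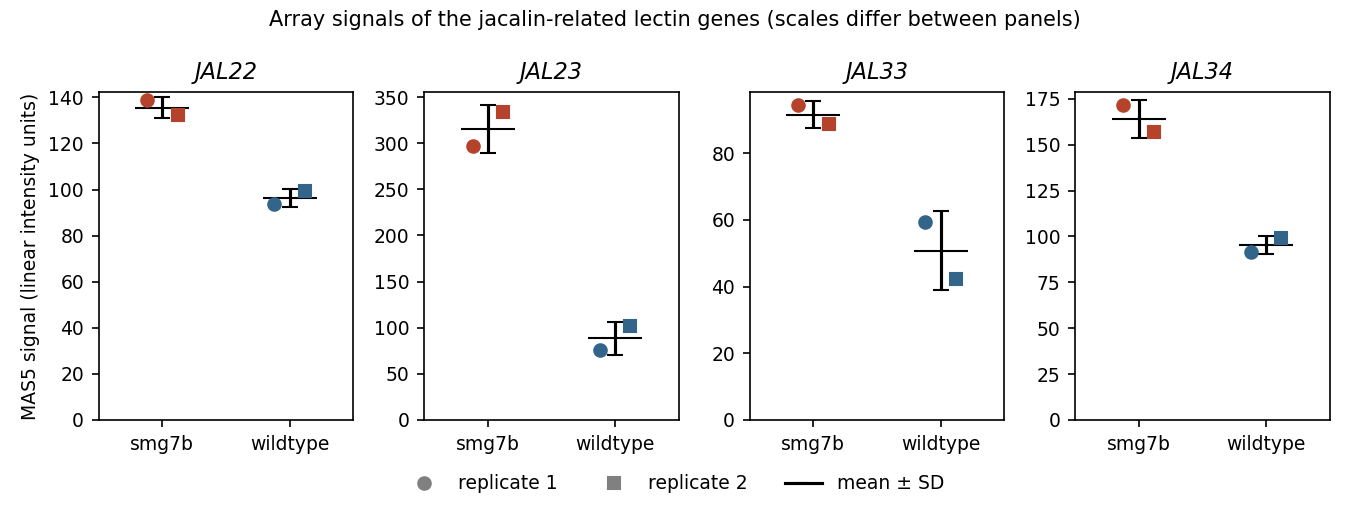
MAS5 signal (linear intensity units, axes from 0 with a scale of their own in each panel) of the 4 lectin genes on the 2 smg7b arrays (red, left) and the 2 wild-type arrays (blue, right). Circles are replicate 1, squares replicate 2, and bars the mean ± SD. Both smg7b points lie above both wild-type points in every panel, with JAL23 at 297 and 334 against 76.0 and 101.4.

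JAL33 and JAL34 are direct neighbours on chromosome 3, inside a run that holds 9 family genes from NSP3 to JR1 (JAL35), among them PBP1 (JAL30), known as a PYK10-binding protein. Only these 2 of the 9 had a single-gene probe set. The annotated spans of JAL34 and JR1 overlap, and the position of the JAL34 probes was not used here. Signal from JR1 transcripts in the JAL34 probe set was not tested.

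JAL33 (AT3G16450, probe set 259384_at) read 94.4 and 88.8 in smg7b, and 59.2 and 42.4 in wildtype. The mutant samples were close to each other, while the wild-type samples lay 0.48 apart on the log2 scale, the widest replicate gap among the 4 genes. Its mean was 91.6 ± 3.95 in smg7b and 50.8 ± 11.9 in wildtype (SD, n = 2 each), with a log2 difference of 0.87 (SE 0.24). Leaving out wild-type replicate 1 gave 1.11, and leaving out wild-type replicate 2 gave 0.63. Of the tested probe sets, 9.05% had a larger positive difference.

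JAL34 (AT3G16460, probe set 259327_at) read 171.4 and 156.7 in smg7b, and 91.8 and 98.9 in wildtype. The genotypes did not overlap, and replicates differed by 0.13 in smg7b and 0.11 in wildtype on the log2 scale. Its mean was 164.1 ± 10.4 in smg7b and 95.3 ± 5.05 in wildtype (SD, n = 2 each), a log2 difference of 0.78 (SE 0.20). A larger positive difference was seen for 10.4% of the tested probe sets.

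The genes were next compared with each other within arrays, as differences and not as levels, since probe sets differ in brightness for the same amount of RNA. The log2 difference of JAL23 exceeded that of its neighbour JAL22 by 1.35, that of JAL33 by 0.98 and that of JAL34 by 1.06. Relative to the wild-type mean, the JAL22 to JAL23 log2 ratio was -1.23 and -1.47 in smg7b, and 0.17 and -0.17 in wildtype, so both mutant samples lay far outside the wild-type pair. The differences of JAL33 and JAL34 were 0.09 apart, and the JAL33 to JAL34 ratio in the mutant (0.07 and 0.11) fell between the wild-type values (0.30 and -0.30). The replicates were not ordered alike. Wild-type replicate 1 was the dimmer wild-type sample for JAL22, JAL23 and JAL34 and the brighter one for JAL33. The first smg7b replicate was the brighter mutant sample for JAL22, JAL33 and JAL34 and the dimmer one for JAL23.

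Signs of RNA quality moved with the genotype. The ratio of the 3′ to the 5′ Actin control probe set was 25.8 and 9.65 in smg7b and 2.22 and 8.62 in wildtype. The same ratio for GAPDH spread less, with 2.26 and 1.41 in smg7b and 0.96 and 1.22 in wildtype. The 25S ribosomal RNA control read 1104 and 1531 in smg7b and 663 and 704 in wildtype. JAL22 and JAL34 ranked the 4 arrays in the same order as the Actin ratio, and JAL23 and JAL33 did not. Between the arrays with the closest Actin ratios, smg7b replicate 2 and wild-type replicate 2, JAL23 was 3.30-fold, JAL33 2.09-fold, JAL34 1.58-fold and JAL22 1.33-fold higher in smg7b. With the Actin log2 ratio as a covariate the log2 differences were 1.66 (SE 0.28) for JAL23, 1.13 (SE 0.34) for JAL33, 0.66 (SE 0.29) for JAL34 and 0.41 (SE 0.30) for JAL22. In that fit the SE came from the intensity trend over all probe sets alone. It holds nothing of each gene's own spread and cannot be set beside the SE of the main fit. The differences of all 4 genes were positive in each of the 14 settings plotted by setting. They ran from 1.53 to 2.05 for JAL23, 0.58 to 1.13 for JAL33, 0.62 to 0.85 for JAL34 and 0.38 to 0.53 for JAL22. This sign was largely fixed in advance, since both smg7b signals lay above both wild-type signals. Leaving out 1 array or adding a pseudocount could not turn it, and filters and replicate blocks left the differences unchanged.

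**Figure D2:**
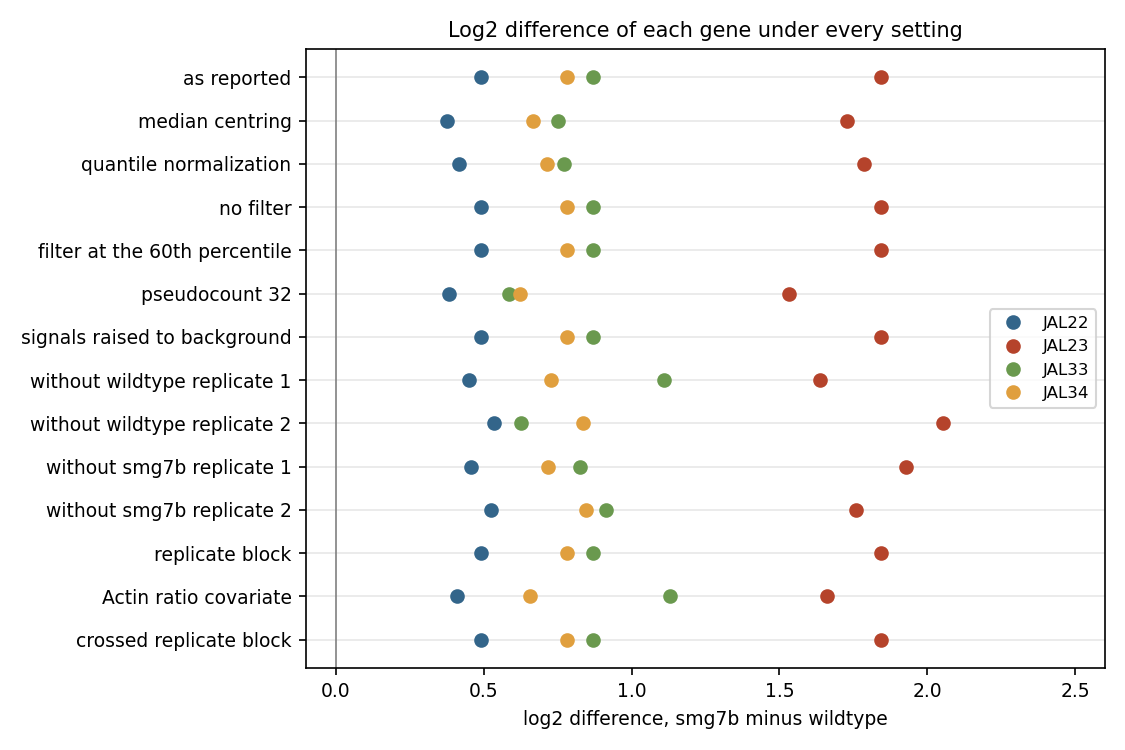
Log2 difference, smg7b minus wildtype (x axis), of JAL22, JAL23, JAL33 and JAL34 (colours) as reported and under each alternative setting (rows). JAL23 lies between 1.53 and 2.05 in every row and JAL22 between 0.38 and 0.53, while JAL33 and JAL34 change places between settings.

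Few genes of the wider jacalin family could be tested. The list held 45 further genes, drawn from RefSeq names and from general knowledge that was not checked against a curated source. It was drawn up with earlier results of these data known, so its counts are description only. Of these, 26 had no single-gene probe set, 16 had one that did not pass the filter on dim signals and 3 passed it. Of the 3 tested genes 1 rose and 0 fell, where 11.3% of all tested probe sets rose and 9.0% fell. Their median log2 difference was 0.31, against -0.01 over all tested probe sets.

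The gene that rose, AT1G52000, read 227.7 and 257.6 in smg7b, and 134.4 and 150.3 in wildtype. The genotypes did not overlap, and the rise was 1.70-fold, a log2 difference of 0.77 (SE 0.19, limma adjusted p = 0.0164), close in size to those of JAL33 and JAL34. The adjusted p was 0.0987 without smg7b replicate 1, 0.147 without smg7b replicate 2 and 0.0546 with the Actin covariate, so the call was lost in each. AT1G19715 read 254 and 175 in smg7b, and 152 and 192 in wildtype, overlapping groups with a log2 difference of 0.31 (SE 0.23, limma adjusted p = 0.383). AT1G73040 read 34.8 and 37.0 in smg7b, and 29.7 and 30.0 in wildtype (log2 difference 0.27, SE 0.28, limma adjusted p = 0.542).

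Of the 16 family genes that were not tested, 7 lay at or under background on all 4 arrays, 7 on some of them and 2 on none. Of the last kind, AT1G33790 read 20.3 and 30.0 in smg7b, and 15.5 and 15.8 in wildtype, without overlap. AT1G52100 read 12.1 and 23.3 in smg7b, and 13.0 and 18.5 in wildtype, and its groups overlapped. AT1G57570 read 11.1 and 9.18 in smg7b, both little above background, and 3.58 and 4.51 in wildtype, both below it. With the wild-type signals raised to background, the geometric mean was 1.56-fold higher in smg7b. This ratio rests on signals near background and was not tested. These 3 genes were singled out after their values were seen. The other genes under background on some arrays all had overlapping groups. Their log2 differences were mostly negative, from -1.48 (AT1G52050) to 0.01 (AT3G51710).

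**Figure D3:**
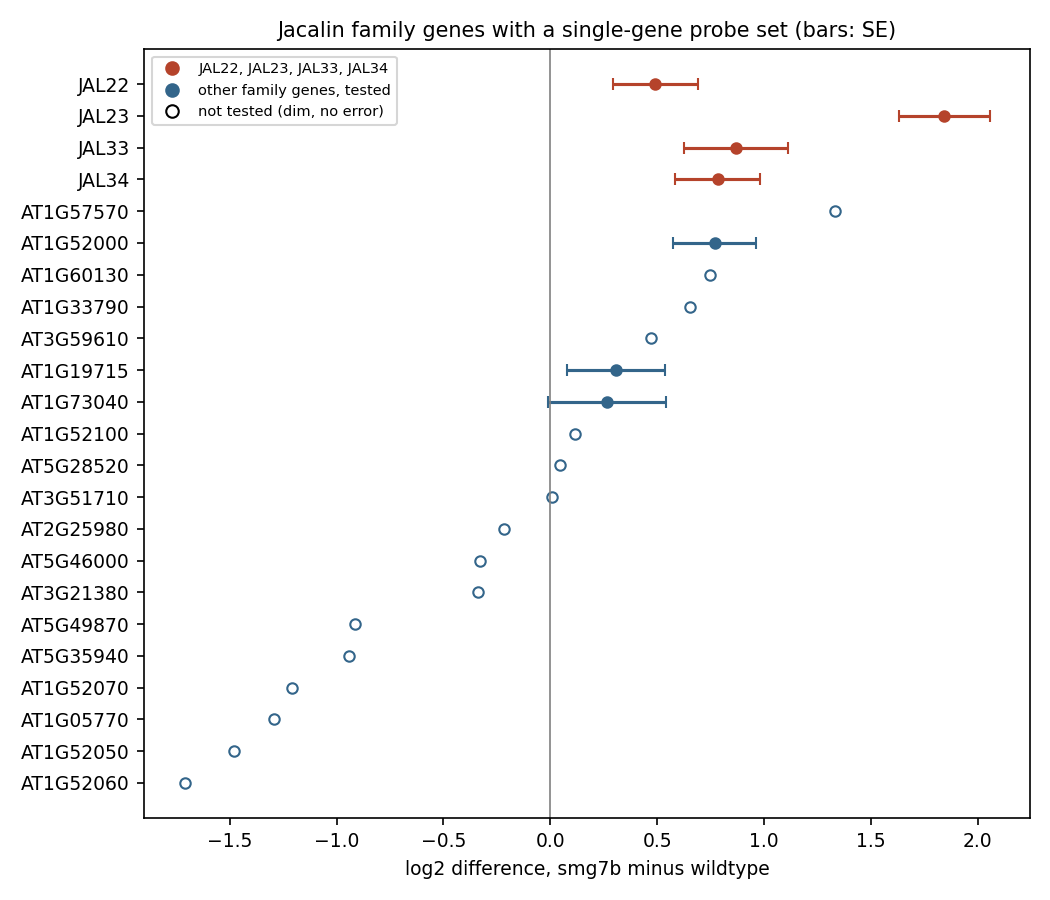
Log2 difference, smg7b minus wildtype (x axis), of the 4 JAL genes (red) and the 19 other jacalin family genes with a single-gene probe set (blue). Filled points with SE bars passed the filter on dim signals, and open points did not and carry no error. The 4 JAL genes, chosen with this difference known, lie from 0.49 to 1.84. The 3 other filled points lie from 0.27 to 0.77, and 1 of them passed the test. Open points spread to both sides of 0.

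Genes known as partners of such lectins were examined through a list for PYK10 and the ER body. This list and those for glucosinolate breakdown and jasmonate were likewise put together from memory, with no curated source to check them. They were also chosen with earlier results of these data known. Their counts and medians beside those of all tested probe sets are therefore description and not independent evidence. Of 15 listed genes 5 had a single-gene probe set and 4 were tested, of which 1 rose and 0 fell, where 11.3% of all tested probe sets rose and 9.0% fell. The median log2 difference was 0.49, against -0.01 over all tested probe sets. PYK10 itself read 402 and 513 in smg7b, and 327 and 363 in wildtype. Its log2 difference of 0.40 (SE 0.20) did not pass the test (limma adjusted p = 0.193; 95% interval -0.04 to 0.84). NAI1, a transcription factor needed to form ER bodies, read 24.3 and 29.3 in smg7b, and 12.7 and 25.3 in wildtype (log2 difference 0.58, SE 0.39, limma adjusted p = 0.323). NAI2, an ER body component, gave 59.4 and 69.9 in smg7b, and 59.8 and 42.4 in wildtype (0.35, SE 0.26, limma adjusted p = 0.367). Neither NAI1 nor NAI2 separated the genotypes. The listed gene that rose was AT1G54020, with 86.5 and 88.6 in smg7b and 12.6 and 13.7 in wildtype, a 6.66-fold rise (limma adjusted p = 3.18e-05). Both its wild-type signals lay below the filter on dim signals (4.32 on the log2 scale), so AT1G54020 was tested only through its smg7b signals. The count and median of the list both depend on this gene. The tables used here give it no name, so its place on the list rests on recall alone.

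The list for glucosinolate breakdown was represented by 1 of its 17 genes, so it says nothing of the pathway. That gene, AT3G07720, read 202 and 175 in smg7b, and 86.7 and 69.5 in wildtype. It rose 2.42-fold (log2 difference 1.28, SE 0.21, limma adjusted p = 0.00141).

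The jasmonate list had 6 measured genes of 31, of which 5 were tested, 2 rose and 0 fell, beside the same 11.3% and 9.0% over all tested probe sets. The median log2 difference was 0.34, against -0.01 over all. THI2.1, a thionin gene induced by jasmonate, read 256 and 239 in smg7b, and 11.3 and 17.2 in wildtype (log2 difference 4.15, SE 0.26, limma adjusted p = 7.69e-07). Both its wild-type signals lay below the filter on dim signals (4.32 on the log2 scale), so THI2.1 was tested only through its smg7b signals. The count and median of the list include this gene. The defensin gene PDF1.2, in contrast, read 29.4 and 31.6 in smg7b, and 39.4 and 35.4 in wildtype (-0.29, SE 0.28, limma adjusted p = 0.494). AT2G43530 read 759 and 786 in smg7b, and 360 and 468 in wildtype, a log2 difference of 0.91 (SE 0.21, limma adjusted p = 0.00938). Its adjusted p was 0.104 when smg7b replicate 1 was left out, 0.0896 when smg7b replicate 2 was left out and 0.0915 in the fit with the Actin covariate, past the threshold in none of them. The jasmonate transcription factors MYC3 and MYC4 gave log2 differences of 0.34 (SE 0.20, limma adjusted p = 0.265) and 0.07 (SE 0.27, limma adjusted p = 0.881), the sign of MYC4 turning to -0.047 after median centring and -0.023 after quantile normalization. The median of the list was thus positive with members on both sides of 0.

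The 3 nearest measured genes on each side of both gene pairs were then compared, together with AT2G39320, which lies between JAL22 and JAL23. The 12 on the outer sides lie 1 to 18 annotated genes away, genes with no single-gene probe set being passed over. Of the 13 genes 9 were tested, and 1 rose and 1 fell, about the share over all tested probe sets (11.3% and 9.0%). Their median log2 difference was -0.003, against -0.01 over all tested probe sets. On chromosome 2 AT2G39360, the nearest measured gene after JAL23, read 112.5 and 94.6 in smg7b, and 42.3 and 69.1 in wildtype (log2 difference 0.93, SE 0.27, limma adjusted p = 0.0283). Its call was lost without wild-type replicate 1 (0.58, adjusted p = 0.0929), without smg7b replicate 1 (0.241) or smg7b replicate 2 (0.0769), without the filter (0.0539) and with the Actin covariate (0.38, adjusted p = 0.534). On the other side of the pair AT2G39260 gave 0.54 (SE 0.22, limma adjusted p = 0.0998) and AT2G39280 gave -0.003 (SE 0.34, limma adjusted p = 0.995). On chromosome 3 AT3G16530 read 355 and 460 in smg7b, and 835 and 906 in wildtype, 10 places after JAL34. Its fall by 1.11 on the log2 scale (SE 0.21, limma adjusted p = 0.00311) was not called without smg7b replicate 1 (adjusted p = 0.117). UGT88A1, a glycosyltransferase gene, gave 0.18 (SE 0.22, limma adjusted p = 0.608), AT3G16370 gave -0.65 (SE 0.27, limma adjusted p = 0.119) and AT3G16350 gave -0.54 (SE 0.33, limma adjusted p = 0.289).

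**Figure D4:**
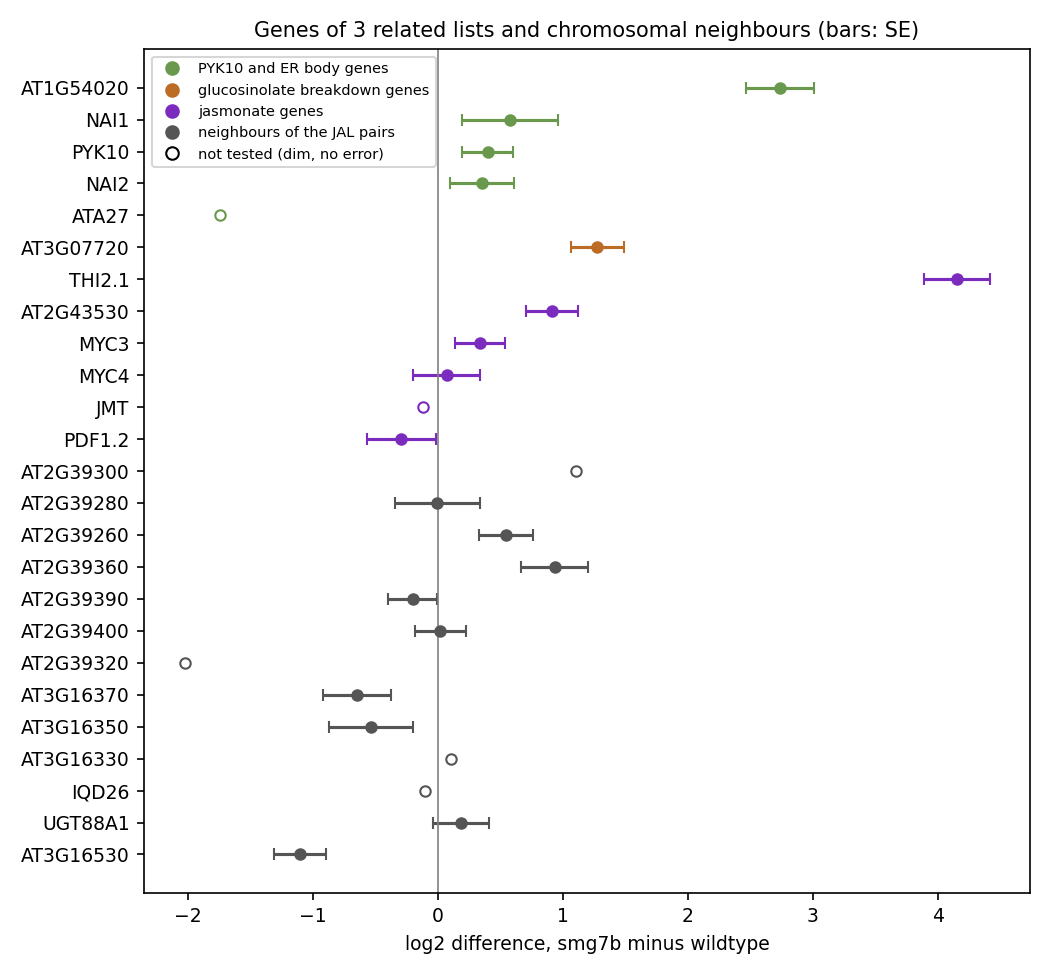
Log2 difference, smg7b minus wildtype (x axis), of the measured genes of the PYK10 and ER body (green), glucosinolate breakdown (brown) and jasmonate (purple) lists and of the chromosomal neighbours of the JAL genes (grey). Filled points with SE bars were tested, and open points were too dim. THI2.1 at 4.15 and AT1G54020 at 2.74 lie furthest to the right, and both passed the filter on dim signals only through smg7b. The neighbours lie on both sides of 0.

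For each lectin gene the most similar patterns were sought among 7261 other tested genes, by the root mean square distance between log2 signals over the 4 arrays after each gene was centred on its own mean. With 4 arrays in 2 groups, many genes come close by the size of their genotype difference alone. Nearest to JAL23 was AT5G19240 (distance 0.04), which read 447 and 516 in smg7b, and 121 and 162 in wildtype, followed by AT3G09490 and AT5G05600 (0.06 each). Nearest to JAL22 were AT4G03020, AT4G07390 and AT2G30530 (0.01 each). JAL33 was closest to AT5G07340 (0.02), IQD23 and AT4G39820 (0.04 each), and JAL34 to AT2G35680 (0.01), AT3G59080 and AT1G61690 (0.02 each). Among the 4 lectin genes themselves the distance was smallest between JAL22 and JAL34 (0.15) and largest between JAL22 and JAL23 (0.69). Each of the 4 had closer patterns among the 7261 genes outside the group than among the 3 inside it. With so many more candidates outside, a closer pattern there is to be had for almost any gene. The comparison therefore cannot show whether the 4 genes behave as a group.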

How the data were processed

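The authors deposited a linear intensity for each probe set on each array, made with MAS5 and GCOS, per the submitters' processing notes, with versions and genome build not given in the sources used here. The deposited signals have a 2% trimmed mean of 100.01 on each array, so they had been scaled. Groups and replicate numbers came from the sample titles. After 64 control probe sets were left out, the probe sets whose mean log2 signal (no pseudocount) reached the 40th percentile, 4.32, were tested with limma (version 3.58.1, R 4.3.3), using lmFit and eBayes with an intensity trend, genotype as the only term and Benjamini-Hochberg adjustment over all 13648 probe sets (threshold 0.05). With 2 arrays per genotype an exact permutation test of 1 probe set cannot go below p = 0.333, so calls rest on the spread pooled over probe sets, and the number of arrays limits precision. On simulated data for this comparison, with 50 of the 13648 probe sets changed at each fold, 14% were recovered at 1.5-fold, 76% at 2-fold and 100% at 4-fold and 8-fold. There 13448 probe sets were left unchanged, whereas 20.3% were called in the real data. The adjustment depends on that share, so the recovery in the real data may differ.

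Probe sets were named through the platform table (13513 with 1 gene, 503 with several, 8794 unnamed here), of which 13436 matched RefSeq by gene identifier. Coordinates are not printed since no build is named. Where several probe sets read 1 gene, the brightest was used. A second gene with the symbol PBP1, a pinoid-binding protein, was kept out of the family. The members and lists were chosen with earlier results of these data known. Named were the 4 lectin genes, called family genes with the 2 highest and 2 lowest others, up to 2 highest and 2 lowest and 6 called genes of each list, 3 measured neighbours on each side, and the 3 nearest patterns of each lectin gene. Alternatives were other scalings, filters and thresholds, a pseudocount of 32, signals raised to background, each array left out, a replicate block and the Actin ratio as a covariate.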

Additional observations from a re-analysis of the deposited data

How the results depend on the processing

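The differences of the 4 lectin genes were positive under every alternative. Only the other scalings and the Actin covariate could have turned their sign, since both smg7b signals lay above both wild-type signals. Median centring gave 0.38 for JAL22 and 0.67 for JAL34, quantile normalization 0.42 for JAL22, and a pseudocount of 32, which shrinks differences by construction, 0.38 for JAL22, 1.53 for JAL23, 0.58 for JAL33 and 0.62 for JAL34. The Actin covariate gave 0.41 for JAL22, 1.13 for JAL33 and 0.66 for JAL34, and the cause was not tested. With 1 array left out JAL22 ranged from 0.45 to 0.53, JAL23 from 1.64 to 2.05, JAL33 from 0.63 to 1.11 and JAL34 from 0.72 to 0.85. The count of all probe sets called was 2771, 1335 at an adjusted p of 0.01, 1709 with the Actin covariate, and 980 (without smg7b replicate 1) to 4325 (without wild-type replicate 2) with 1 array left out. Without either wild-type array and with the covariate, limma used the trend alone for the spread, so those p-values are too small. Of the other family genes 1 was called, 0 at an adjusted p of 0.01 and with the covariate, and 0 to 1 with 1 array left out. Of the jasmonate genes 2 were called, 1 with the covariate and at the 60th percentile filter, and 1 to 2 with 1 array left out. The PYK10 and ER body list had 0 called at that filter, which AT1G54020 and THI2.1 did not pass. Titles share replicate numbers. The deviations of same-numbered arrays from their group means were weakly and negatively correlated (r = -0.15), which cannot show whether the numbers pair the samples. The main fit treated the arrays as unpaired. With a replicate block 2488 probe sets were called, and no call changed among the 22 named genes whose calls were followed. A crossed replicate block, added after seeing the data, called 3988.

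Calls were followed for 22 of the named genes. The lectin genes, their nearest patterns, MYC3 and the leaf genes were not among them. Over 277 alternative values of the 22 genes, 248 kept direction and call, 12 lost the call, 3 gained it and 14 changed sign, none of them called. The log2 difference of MYC4 was -0.047 with median centring, -0.023 with quantile normalization and -0.49 with the covariate, and it ranged from -0.33 to 0.47 with 1 array left out. With the covariate AT1G19715 gave -0.15, UGT88A1 -0.14 and AT2G39280 0.15. Leaving out 1 array, UGT88A1 ranged from -0.053 to 0.42, AT2G39280 from -0.32 to 0.31 and AT2G39400 from -0.15 to 0.19. AT2G39400 gave -0.096 with median centring and -0.030 with quantile normalization.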
